A study of Mus musculus with 6 samples.

Results

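The 10 genes considered here encode NF-kB subunits and the proteins that restrain or feed back on them, in cultured mouse natural killer (NK) cells, which are cytotoxic lymphocytes of the innate immune system. They are Nfkbia, Relb, Traf3, Ikbke, Nfkb1, Nfkb2, Rela, Tnfaip3, Nfkbiz and Traf1. Of these, 8 were rows of the value table, among 518 endogenous and housekeeping genes, and Nfkbiz and Traf1 were not analysed here. The 8 fell into 4 subunit genes (Rela, Relb, Nfkb1, Nfkb2), 3 inhibitor genes (Nfkbia, Tnfaip3, Traf3) and 1 kinase gene (Ikbke). All 8 had at least 20 recovered counts in all 6 libraries, so each passed the filter on low counts whatever its group.

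Transcripts were counted with a NanoString nCounter panel, which reads hybridised barcodes without amplification, in 3 groups of 2 libraries. All NK cells came from C57BL/6 mice that the labels give as female, with no age, and were expanded for 12 days with IL-15 conjugated to its receptor alpha chain, at 10 ng/mL. In the first group the expansion used that conjugate alone (IL-15 replicates 1 and 3). In the second, AgN2a-4P feeder cells irradiated at 100 Gy were added (feeder replicates 2 and 3). AgN2a-4P is a mouse neuroblastoma line that carries CD54, CD80, CD86 and CD137L. In the third, feeder-expanded cells were given anti-TIM-3 antibody, for 4 h per the labels' protocols (anti-TIM-3 replicates 1 and 2). The labels of the first 2 groups state no treatment, although the protocol names an IgG2a isotype control, so whether those cells had a control antibody is unsettled. If they had none, the antibody and its incubation cannot be told apart. Libraries said below to be without antibody are those without anti-TIM-3. The growth protocol is worded alike for all 6 libraries and mentions feeder cells throughout, and the expansion method in the labels was used to set the groups. Before RNA was taken, the NK cells were re-purified. No source says whether the libraries of a group are from different mice. The p-values therefore reflect only how far these libraries differ, which may be technical.

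NF-kB factors are dimers of Rel-domain proteins. In the canonical arm, IkB-alpha, encoded by Nfkbia, holds RelA paired with p50 in the cytoplasm until a kinase complex marks IkB-alpha for destruction. In the non-canonical arm, TRAF3 keeps the kinase NIK scarce, and when TRAF3 is removed, p100 is cut to p52, which pairs with RelB. Rela and Relb encode RelA and RelB, Nfkb1 encodes p105, the precursor of p50, and Nfkb2 encodes p100, the precursor of p52. Nfkbia and Tnfaip3, whose product A20 edits ubiquitin chains on signalling proteins, are themselves NF-kB targets and close negative feedback loops. Ikbke encodes IKK-epsilon, an IKK-related kinase that acts on interferon regulatory factors and NF-kB proteins. In NK cells NF-kB acts downstream of activating receptors and of cytokines such as IL-18.

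Promoter windows are shown because the genes below are, in other cells, known to include targets of NF-kB, and the decamer that NF-kB dimers bind can be seen in them. The windows are RefSeq sequences of build GRCm38.p6, from 250 bases before to 50 bases after a transcript start, and 6 of the 8 genes had at least 1. Capitals mark matches, on either strand, to the NF-kB decamer consensus, and overlapping matches were merged. Of 9 windows of these 6 genes, 6 held a match, against 4.51% of 32851 windows of all genes. Windows of 1 gene can overlap: those numbered 2 and 3 of Nfkb2 share bases and 1 of their matches. The windows printed are those of Nfkbia (chr12:55492598-55492897, minus strand), the first of Nfkb2 (chr19:46304487-46304786, plus strand), Traf3 (chr12:111166120-111166419, plus strand) and the first of Tnfaip3 (chr10:19015361-19015660, minus strand), each written 5′ to 3′ on the gene's strand.
Nfkbia: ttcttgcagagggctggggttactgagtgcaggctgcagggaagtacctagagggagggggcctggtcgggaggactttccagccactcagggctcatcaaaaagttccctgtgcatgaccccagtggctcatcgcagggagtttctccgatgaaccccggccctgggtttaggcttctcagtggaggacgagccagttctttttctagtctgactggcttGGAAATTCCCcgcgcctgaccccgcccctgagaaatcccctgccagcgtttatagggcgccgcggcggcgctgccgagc
Nfkb2: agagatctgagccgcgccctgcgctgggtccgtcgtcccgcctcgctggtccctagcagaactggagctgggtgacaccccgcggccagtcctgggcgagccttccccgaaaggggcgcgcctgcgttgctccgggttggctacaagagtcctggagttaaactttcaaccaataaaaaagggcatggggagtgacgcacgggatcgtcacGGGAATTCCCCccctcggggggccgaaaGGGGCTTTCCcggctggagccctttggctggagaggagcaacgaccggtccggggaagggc
Traf3: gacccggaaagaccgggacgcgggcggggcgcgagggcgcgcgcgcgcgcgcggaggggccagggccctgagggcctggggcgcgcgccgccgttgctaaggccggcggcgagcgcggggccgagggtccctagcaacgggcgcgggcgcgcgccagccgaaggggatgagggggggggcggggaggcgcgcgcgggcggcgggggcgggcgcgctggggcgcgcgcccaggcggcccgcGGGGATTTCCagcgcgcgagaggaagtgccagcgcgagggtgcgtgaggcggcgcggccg
Tnfaip3: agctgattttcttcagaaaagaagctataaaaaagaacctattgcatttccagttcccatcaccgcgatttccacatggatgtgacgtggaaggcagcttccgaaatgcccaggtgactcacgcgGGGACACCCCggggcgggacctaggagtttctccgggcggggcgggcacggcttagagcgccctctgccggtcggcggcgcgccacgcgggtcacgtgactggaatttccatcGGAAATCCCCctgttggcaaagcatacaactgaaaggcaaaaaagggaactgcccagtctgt

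Counting from the transcript start, the match of Nfkbia began at -29 and that of Traf3 at -10. The first window of Nfkb2 held 3 matches, beginning at -39, -38 and -11, of which those at -39 and -38 overlap. That of Tnfaip3 held 2, beginning at -125 and -12. The windows of Rela and Ikbke, and the second window of Tnfaip3, held none. A match says only that these letters are there, and none of these windows was assayed.

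Recovered counts, the whole numbers behind the deposited log2 values, totalled 299485 to 441185 per library, and the 8 negative controls averaged 4.25 to 6.13 counts. Values below are normalised counts (2 to the power of the deposited value), set by the authors so that 20 housekeeping probes had the same mean log2 value in each library. On that scale the 430 tested genes had a median log2 fold change of 0.47 in the anti-TIM-3 comparison and 0.19 in the feeder comparison, against -0.06 and 0.01 with trimmed mean of M values (TMM) scaling. In the anti-TIM-3 comparison each change is therefore also given relative to the median of 0.47. The recovered counts of the 8 genes ran from 30 to 671, above the highest negative control count of 12. Bulk counts cannot tell fewer cells of a type from less RNA per cell.

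The first comparison set feeder-expanded NK cells given anti-TIM-3 against feeder-expanded cells without it. Of the 8 genes, 6 rose, none fell and 2 did not pass, at an adjusted p of 0.05 in limma with Benjamini-Hochberg adjustment over all tested genes. Among all tested genes 31.4% rose and 7.21% fell. That is 135 up and 31 down, a split that depended on scaling, with 53 up and 50 down under TMM. Relb, Nfkbia, Traf3 and Ikbke rose most, Nfkb2 and Rela rose by less, and Nfkb1 and Tnfaip3 did not pass. Relative to the median of all tested genes, log2 fold changes were 1.63 for Traf3, 1.62 for Nfkbia, 1.5 for Relb and 1.4 for Ikbke. They were 0.8 for Nfkb2, 0.74 for Rela, 0.28 for Tnfaip3 and -0.15 for Nfkb1. The median log2 fold change of the 8 was 1.57, against 0.47 over all tested genes, and 7 of the 8 lay above that overall median, Nfkb1 being the exception. All 8 were higher in each anti-TIM-3 library than in each feeder library, as were 60.2% of tested genes. The 8 were chosen with earlier results of these data known, so these counts and medians describe them and test nothing.

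**Figure D1:**
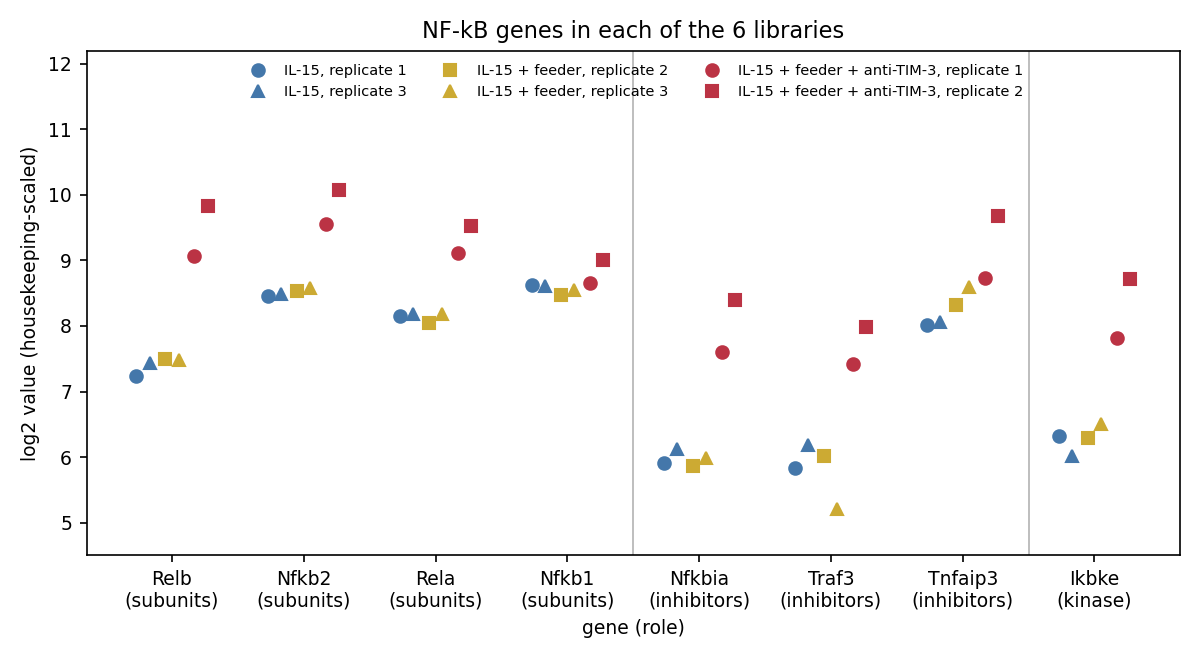
Deposited log2 value (housekeeping-scaled, vertical axis) of each of the 8 genes in each of the 6 libraries; colour gives the group and shape the replicate number. Nfkbia lies between 5.87 and 6.13 in the 4 libraries without anti-TIM-3 and at 7.61 and 8.40 in the anti-TIM-3 libraries, whereas Nfkb1 lies between 8.47 and 8.66 in 5 libraries and is highest in anti-TIM-3 replicate 2.

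Among the subunit genes, Relb changed most. Its normalised count was 151 and 174 with IL-15, 179 and 178 with feeder cells, and 538 and 910 after anti-TIM-3. The 4 libraries without antibody lay close together and well below the other two. Relb rose by 1.97 ± 0.29 (log2 fold change ± SE, n = 2 libraries a group, adjusted p = 0.00884), or 1.5 above the median of all tested genes.

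Nfkb2, whose product is both the precursor of p52 and, uncut, an inhibitor of RelB, was at 351 and 360 normalised counts with IL-15, 370 and 382 with feeder cells, and 756 and 1082 after anti-TIM-3. Its increase was 1.27 ± 0.22 on the log2 scale (adjusted p = 0.0104). Rela stood at 285 and 291 normalised counts with IL-15, 263 and 289 with feeder cells, and 553 and 734 after anti-TIM-3. The 2 groups without antibody overlapped, and the log2 fold change under anti-TIM-3 was 1.21 ± 0.21 (adjusted p = 0.0104). Nfkb2 and Rela thus differed in size by far less than their standard errors.

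Nfkb1 stood apart from the other subunit genes. It had 397 and 391 normalised counts with IL-15, 354 and 376 with feeder cells, and 405 and 512 after anti-TIM-3. All 6 libraries lay in a narrow band, with anti-TIM-3 replicate 2 the highest. The log2 fold change was 0.32 ± 0.20 (95% interval -0.16 to 0.80, adjusted p = 0.234), which is 0.15 below the median of all tested genes, and it was negative with TMM (-0.20), positive control (-0.19) and median of ratios scaling (-0.17). Rel, encoding the remaining subunit c-Rel, belongs to the list of other pathway genes. It rose by 1.04 ± 0.28 on the log2 scale (adjusted p = 0.0310), from 285 and 218 to 455 and 573 normalised counts, and did not pass with TMM (0.51, adjusted p = 0.196).

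Of the inhibitor genes, Nfkbia and Traf3 rose about alike. Nfkbia had 60.1 and 70.2 normalised counts with IL-15, 58.4 and 63.0 with feeder cells, and 196 and 337 after anti-TIM-3. No anti-TIM-3 library came near the other 4, and the log2 fold change was 2.08 ± 0.32 (adjusted p = 0.00919), or 1.62 above the median of all tested genes. Traf3 was at 56.7 and 73.1 with IL-15, 64.4 and 37.1 with feeder cells, and 171 and 254 after anti-TIM-3. The lowest value, in feeder replicate 3, rests on 30 recovered counts, and the feeder libraries differed by 0.80 on the log2 scale. Traf3 rose by 2.09 ± 0.38 (adjusted p = 0.0113), and by 1.69 against feeder replicate 2 alone.

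Tnfaip3, the A20 gene, did not follow Nfkbia. It was at 257 and 266 normalised counts with IL-15, 320 and 387 with feeder cells, and 425 and 823 after anti-TIM-3. Anti-TIM-3 replicate 1 lay just above feeder replicate 3, and replicate 2 far above it. The log2 fold change was 0.75 ± 0.33 (95% interval -0.06 to 1.55, adjusted p = 0.123). It was 0.27 without anti-TIM-3 replicate 2 (adjusted p = 0.477) and 1.23 without replicate 1 (adjusted p = 0.0181), so 1 library decides whether this gene passed.

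Ikbke, the kinase gene, had 80.1 and 65.1 normalised counts with IL-15, 78.2 and 90.2 with feeder cells, and 224 and 418 after anti-TIM-3. The 4 libraries without antibody were mixed in order. Ikbke rose by 1.87 ± 0.35 on the log2 scale (adjusted p = 0.0117).

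The 6 rises also passed with TMM, total count and median of ratios scaling, where the log2 fold changes of Relb, Nfkbia, Traf3 and Ikbke were between 1.32 and 1.83 and those of Nfkb2 and Rela between 0.68 and 1.01. With positive control scaling Relb, Nfkbia and Traf3 passed, and Ikbke (1.36, adjusted p = 0.0645), Nfkb2 (0.76) and Rela (0.70) did not. Without feeder replicate 3 none of the 8 passed (smallest adjusted p = 0.0694, log2 fold changes of the 6 from 1.28 to 2.14), as no tested gene did in that limma fit. The genes Relb, Nfkbia and Traf3 passed when feeder replicate 2 was left out, and Relb, Nfkb2 and Nfkbia when anti-TIM-3 replicate 2 was.

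**Figure D2:**
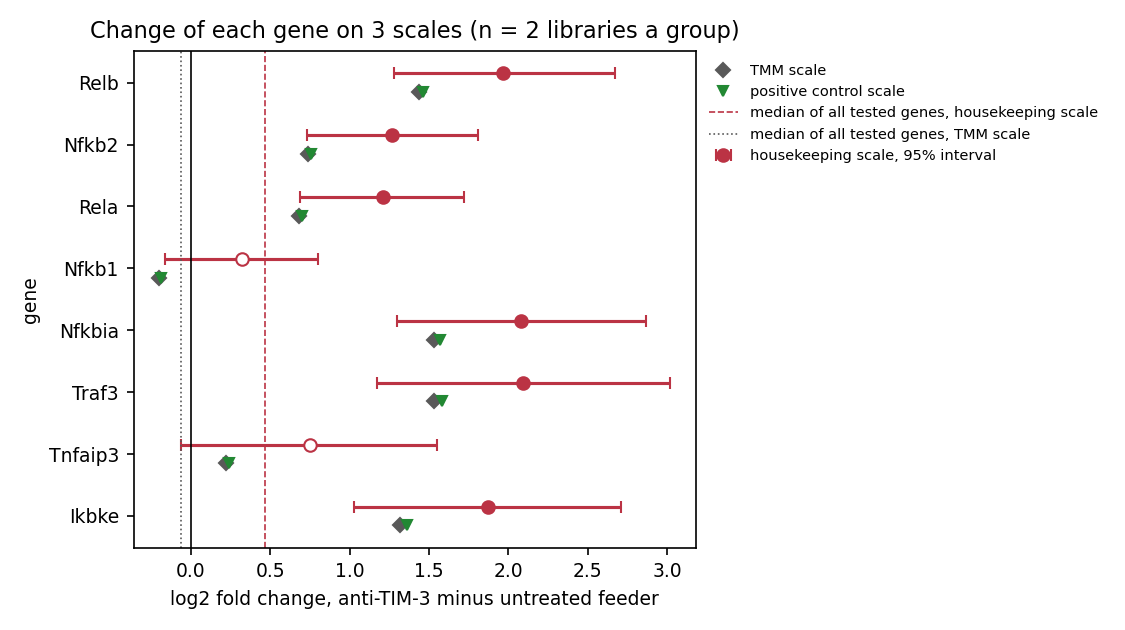
Log2 fold change of each gene between anti-TIM-3 and feeder libraries (horizontal axis) on 3 scales; red points are the housekeeping scale with 95% intervals from limma, filled where the adjusted p was under 0.05, and vertical lines are the medians of all tested genes. Relb at 1.97 and Nfkbia at 2.08 lie well to the right of the overall median of 0.47, and Nfkb1 at 0.32 lies to its left.

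The authors' deposited table compares groups named only by number. Its log2 fold changes for 498 genes differed from those computed here for anti-TIM-3 minus feeder by a median of 0.006, so it was read as this comparison. In the authors' deposited table the q-value was 0.0017 for Nfkbia, 0.0024 for Relb, 0.0026 for Ikbke, 0.003 for Traf3, 0.0038 for Rela and 0.0052 for Nfkb2. For Tnfaip3 and Nfkb1 the q-values in the authors' deposited table were 0.23 and 0.29.

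The 2 anti-TIM-3 libraries were not equal for these genes. All 8 were higher in replicate 2 than in replicate 1, by 0.34 (Nfkb1) to 0.95 (Tnfaip3) on the log2 scale, while the median difference over all tested genes was 0.17. With TMM the differences of the 8 were 0.09 to 0.70, against -0.07 over all tested genes. Replicate 2 also had the lowest total count and the lowest housekeeping level, at a geometric mean of 343.4 recovered counts against 482.4 to 815.1 in the other libraries. The part of this in the result was not tested.

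Inhibitors were set against subunits within each library, where the library's scaling cancels. Probes differ in efficiency, so such a difference is read only for how it moves between libraries. The mean log2 value of the 3 inhibitor genes minus that of the 4 subunit genes was -1.54 and -1.39 with IL-15, -1.40 and -1.60 with feeder cells, and -1.18 and -0.92 after anti-TIM-3. The anti-TIM-3 libraries were the highest, and the mean moved up by 0.45 from the feeder libraries (SD of 0.14 and 0.19 in the feeder and anti-TIM-3 groups, n = 2 each). This is a description with no test: an exact permutation test of 2 against 2 cannot give a two-sided p below 0.333. The size depended on which genes were counted. It was 0.22, with overlapping groups, for Nfkbia and Tnfaip3 alone, and 0.71 when Relb was left out of the subunits. It was not computed without Nfkb1, the subunit gene that changed least. Set against Nfkb1 alone, Nfkbia shifted by 1.76, Traf3 by 1.77 and Tnfaip3 by 0.43. Set against Relb alone, they shifted by 0.11, 0.12 and -1.22. The shift of 0.45 therefore does not show that the inhibitor genes outpaced each subunit gene. The log2 fold changes of Nfkbia (2.08) and Traf3 (2.09) lay above those of all 4 subunit genes, which ran from 0.32 to 1.97, and that of Tnfaip3 (0.75) lay within that range.

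Single pairs differed widely. Of 12 pairs of an inhibitor and a subunit gene, 9 moved in favour of the inhibitor from the feeder to the anti-TIM-3 libraries. The other 3 moved against it, and shifts ran from -1.22 to 1.77 on the log2 scale. The 3 against it were Tnfaip3 with Relb, Nfkb2 and Rela. Nfkbia minus Relb was -1.62 and -1.5 with feeder cells and -1.46 and -1.43 after anti-TIM-3, a shift of 0.11. With IL-15 it was higher than both, at -1.33 and -1.31. Traf3 minus Relb shifted by 0.12 with overlapping groups. Against IL-15 alone these pairs shifted by -0.13 and -0.42, so their direction depended on the control group. Tnfaip3 minus Rela changed the other way, from -0.46 to 0.03. Nfkbia minus Nfkb1 went from -2.60 and -2.58 to -1.05 and -0.60, a shift of 1.76. The ratio of Nfkbia to Relb thus moved far less than the ratio of either to Nfkb1 (1.65 for Relb).

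Within the subunits, Relb gained on each of the other 3 genes and Nfkb1 lost to each of them. Relb minus Rela was -0.91 and -0.74 with IL-15, -0.56 and -0.70 with feeder cells, and -0.04 and 0.31 after anti-TIM-3. Nfkb2 minus Nfkb1 was -0.18 and -0.12, then 0.06 and 0.02, then 0.90 and 1.08. Each of these differences was highest in the anti-TIM-3 libraries, with shifts of 0.76 and 0.95 from the feeder libraries. Differences of a like size were found inside the arms. Relb minus Nfkb2, the non-canonical pair, shifted by 0.70, and Rela minus Nfkb1, the canonical pair, by 0.89. Nfkb2 minus Rela shifted by 0.06 with overlapping groups. These pairs were singled out after their values were seen, and no difference between the arms was tested.

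**Figure D3:**
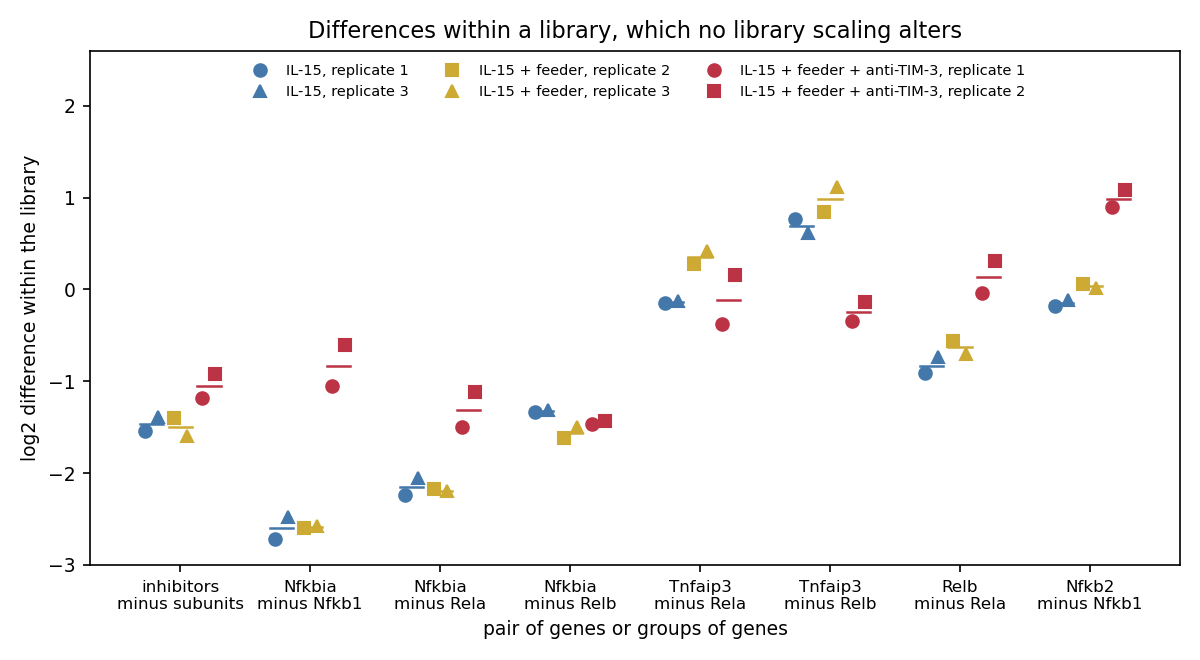
Log2 difference between genes, or means of genes, within a library (vertical axis) for 8 of the computed differences; points are libraries, with colour for the group and shape for the replicate number, and bars are group means. Nfkb2 minus Nfkb1 sits between -0.18 and 0.06 without anti-TIM-3 and at 0.90 and 1.08 after anti-TIM-3, and Nfkbia minus Relb stays between -1.62 and -1.31 in all 6 libraries.

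The feeder comparison asks what expansion on feeder cells changed without antibody. None of the 8 genes passed, as no tested gene did (0% higher and 0% lower), with 39 of 430 genes and none of the 8 at an unadjusted p under 0.05 in limma, and no member passed with voom either. The log2 fold changes ran from -0.40 for Traf3 to 0.43 for Tnfaip3, with a median of 0.01 against 0.19 over all tested genes. For Nfkbia the 95% interval was -0.89 to 0.69, for Relb -0.56 to 0.83 and for Tnfaip3 -0.38 to 1.23, so with 2 libraries a group a change anywhere in these intervals remains possible. Tnfaip3, Relb and Nfkb2 were higher in each feeder library than in each IL-15 library, and Nfkb1 was lower, shares near those of all tested genes (34.4% higher and 5.81% lower), and on other scales Relb and Nfkb2 changed sign. With total count and positive control scaling Relb, Nfkb2 and Ikbke were negative.

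Feeder cells and antibody together were then compared with IL-15 alone, against the other control group. Here 7 of the 8 genes rose, none fell, and Nfkb1 did not pass (0.21 ± 0.20, 95% interval -0.27 to 0.69, adjusted p = 0.396), whereas 44.0% of tested genes rose and 6.98% fell (189 and 30 genes, against 78 and 76 with TMM). This comparison shares the anti-TIM-3 libraries, and the choice of genes, with the one above. The log2 fold change was 2.11 ± 0.29 for Relb, 2.08 ± 0.35 for Ikbke, 1.98 ± 0.32 for Nfkbia and 1.69 ± 0.38 for Traf3. It was 1.35 ± 0.22 for Nfkb2, 1.18 ± 0.33 for Tnfaip3 (adjusted p = 0.0273) and 1.15 ± 0.21 for Rela. The median of the 8 was 1.52, against 0.70 over all tested genes, and all 8 were higher in each anti-TIM-3 library than in each IL-15 library, as were 67.4% of tested genes. With TMM, total count or median of ratios scaling 4 of the 8 passed (Relb, Nfkb2, Nfkbia and Ikbke), with positive control scaling Relb alone did, and Nfkb1 had a negative sign on all 4 of these scales. Without anti-TIM-3 replicate 2, 5 of the 8 passed, Traf3 and Tnfaip3 not. Of the 6 fits that leave out 1 library, Tnfaip3 passed in that without anti-TIM-3 replicate 1 alone.

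Genes above and below these in the pathway were taken from 4 lists, also chosen with earlier results of these data known. They were read in the anti-TIM-3 comparison against the 31.4% of all tested genes that rose, or 12.3% with TMM. On the housekeeping scale no tested member of the 4 lists fell, whereas 2 receptor genes did with TMM. Among ligands of receptors that signal to NF-kB, 6 of 11 rose (54.5%), with a median log2 fold change of 1.5, and 5 of 11 with TMM. Ltb, encoding lymphotoxin beta, a ligand of the non-canonical arm, rose by 3.65 ± 0.40, Tnf by 2.75 ± 0.31, Tnfsf8, encoding the ligand of CD30, by 2.70 ± 0.26, and Lta, encoding lymphotoxin alpha, by 2.66 ± 0.64. Of these, Lta did not pass with TMM (adjusted p = 0.0604).

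Of the receptor genes 4 of 15 rose (26.7%), a share near that of all tested genes, with a median of 0.50, and 3 of 15 rose with TMM. Il18r1 (1.72 ± 0.33) and Il18rap (1.31 ± 0.37), encoding both chains of the IL-18 receptor, rose, as did Tnfrsf1a, encoding a TNF receptor (1.5 ± 0.20). Tlr6, a Toll-like receptor gene, was at 1.66 ± 0.75 and did not pass (adjusted p = 0.128). Il18rap did not pass with TMM (adjusted p = 0.160).

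Among kinases, adaptors, c-Rel and other pathway proteins 8 of 22 rose (36.4%), again near the share of all tested genes, with a median of 0.55, and 1 of 22 with TMM. No gene for a further IkB protein was among the 22 tested. The deubiquitinase gene Cyld, a further brake on the pathway, led them at 1.40 ± 0.26. Rel came next, with the kinase gene Irak4 (1.03 ± 0.22) and Traf2, encoding an adaptor that works with TRAF3 (1.01 ± 0.26). The 1 that rose with TMM was Cyld (0.86, adjusted p = 0.0471). Of the textbook NF-kB target genes 8 of 16 rose, with a median of 1.28, and 7 of 16 with TMM. The leading targets were Ltb, Ccl3, encoding a chemokine (3.31 ± 0.36), Csf2, encoding GM-CSF (2.82 ± 0.48), and Tnf, which passed with TMM as well. Ltb and Tnf are on 2 of these lists. In the feeder comparison no member of the 4 lists passed.

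**Figure D4:**
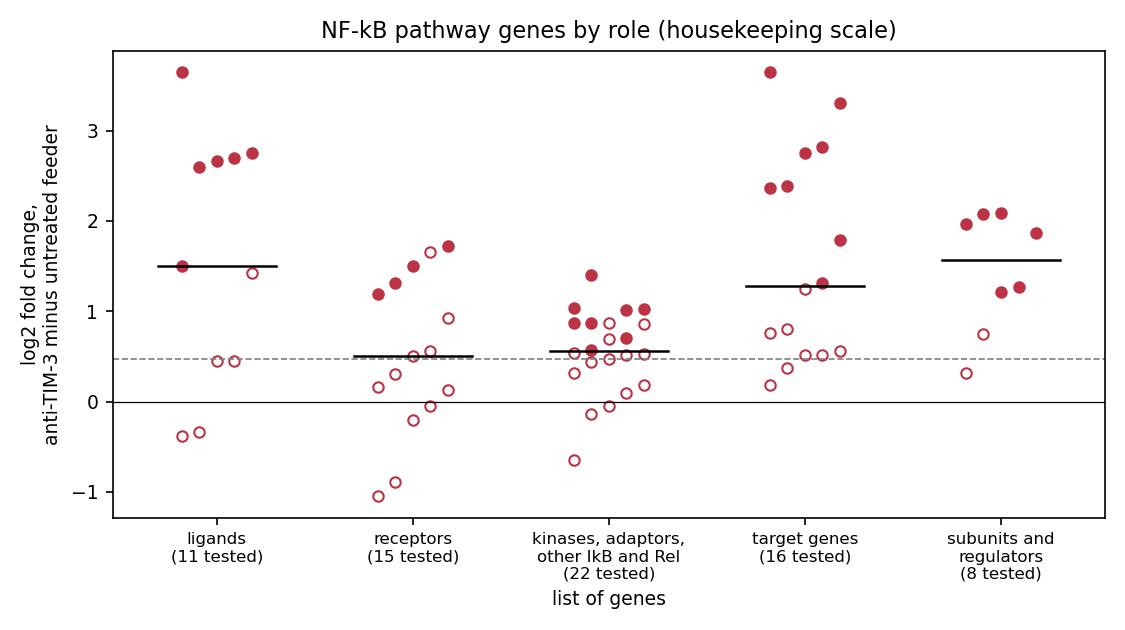
Log2 fold change between anti-TIM-3 and feeder libraries (vertical axis, housekeeping scale) of each tested gene of 4 pathway lists and of the 8 genes; filled points had an adjusted p under 0.05 in limma, black bars are list medians, the dashed line is the median of all tested genes and sideways position carries no value. The medians are 1.5 for ligands, 0.50 for receptors, 0.55 for kinases and adaptors, 1.28 for targets and 1.57 for the 8 genes. The list of kinases and adaptors is also labelled for other IkB, but held no tested gene of that kind.

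Over the 6 libraries, the genes most like Nfkbia by Pearson correlation of log2 values, among 402 other tested endogenous genes, were Gata3 (r = 0.995), Gbp5 (0.994), Psen2 (0.991), Tapbp (0.989) and Casp1 (0.988). Those most like Relb were Ltb (0.996), Tapbp (0.996), Il16 (0.994), Gata3 (0.994) and Psen2 (0.992). With TMM, Gbp5 became the first for Nfkbia (0.991) and Ltb stayed the first for Relb (0.993), while Psen2 dropped to rank 22 for Relb. These are descriptions: the libraries share scaling factors, and 4 low and 2 high points make up each correlation. Among the 8 genes themselves the 21 pairs without Nfkb1 correlated at 0.750 to 0.999, and at 0.401 to 0.996 with TMM. The 7 pairs with Nfkb1 went from 0.807 to 0.874 on the housekeeping scale to -0.747 to -0.499 with TMM.

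Markers of NK cells and of other cells were read beside these values in the anti-TIM-3 comparison. Over all 430 tested genes 31.4% rose and 7.21% fell there, and 53 genes rose and 50 fell with TMM. Of 15 NK cell markers 7 rose, 3 fell (Klrg1 at -3.42, Prf1 at -2.41 and Eomes at -0.72) and 5 did not pass, and with TMM 3 rose and 3 fell. Their recovered counts made up 20.4% to 24.3% of all gene counts in the libraries without antibody and 24.7% and 24.1% after anti-TIM-3. Markers of myeloid and dendritic cells rose for 4 of 9 tested genes in the anti-TIM-3 comparison, or 44.4%, the other 5 not passing, and the sum over the 11 on the table was 335 to 603 without antibody and 1323 and 1554 after it. With TMM H2-Aa alone rose (1.82, and 2.39 ± 0.45 on the housekeeping scale) and Tlr4 fell. Cd74, at 3.13 ± 0.90, did not pass with TMM (2.54, adjusted p = 0.0731), and its feeder libraries stood apart at 118 and 22.2 normalised counts. Cd14 (-1.12) and Tlr4 (-1.05) had negative values that did not pass on the housekeeping scale. Csf1r had at most 12 recovered counts, like the negative controls, and Cd14 had 13 and 11 counts after anti-TIM-3. Of 4 T cell markers Zap70, which NK cells also express, rose (0.69, not passing with TMM at 0.16) and Cd3d fell (-1.83). Cd28 (-0.43) and Cd247 (0.3) did not pass, and with TMM none rose and Cd3d and Cd28 (-0.93) fell. The sums were 582 to 1146 without antibody and then 1289 and 1214. After anti-TIM-3 most of each sum was Zap70 (605 and 688 normalised counts) and Cd247 (543 and 406). Cd3d went from 190 and 188 normalised counts with feeder cells to 67.6 and 41.7, and Cd28 from 89.1 and 116 to 73.2 and 78.1. The 4 B cell markers summed to at most 69.5 in any library. Of 3 tested mast cell markers Kit rose and Ctsg and Cma1 fell, with sums over 6 genes of 509 to 1353 and then 442 and 479. Of the genes listed as feeder line ligands 2 were on the panel, and Icam1 alone passed the filter on counts. Icam1, which the feeder line carries as CD54, rose by 2.37 ± 0.41, and it is also 1 of the NF-kB target genes counted above. It was at 159 and 122 normalised counts in the feeder libraries and 496 and 1054 after anti-TIM-3. Sums over both genes were 183 and 138, then 503 and 1064. The part of other cells in the result was not tested.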

How the data were processed

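RNA of 6 libraries was measured on a NanoString nCounter panel, although the labels' protocols describe quantitative PCR. The deposited value table held log2 values of 532 probes (498 endogenous, 20 housekeeping, 14 spike-in controls), with no header on how they were made; limma is named in the submitters' processing notes, with no role. The values were found to be whole counts times 1 factor a library, since 100.0% came out whole within 0.01. In the authors' deposited comparison each gene had a p-value, a q-value, a score of the test and a log2 fold change. A further 18 columns and 12 rows named by instrument lane could not be tied to samples and were not used.

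The log2 values of all 6 libraries entered 1 fit by group in limma 3.58.1 (R 4.3.3), with a variance trend and robust moderation. The 430 genes that reached 20 recovered counts in 2 or more libraries were kept, with Benjamini-Hochberg adjustment over all of them. The script was tested on simulated data in which the factor of each library was known, so the choice of scaling was not tested by it. Groups came from the expansion method and treatment labels. Alternatives were 4 other scalings (TMM with a prior count of 2), background subtraction, other filters, voom, plainer moderation, 2 groups alone, a replicate block and leaving out each library, with the filter applied anew.

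Genes and lists were chosen with earlier results of these data known. Named were the members, of each list the 4 largest changes, and the 5 genes most correlated with Nfkbia and with Relb. Precision was limited by counting error, by the spread between libraries and by the choice of scaling.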

Additional observations from a re-analysis of the deposited data

How the results depend on the processing

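In the anti-TIM-3 comparison 6 of the 8 genes passed. The number was also 6 under 9 alternatives that kept all libraries of both groups (TMM, total count and median of ratios scaling, background subtraction, no count filter, at least 50 counts, voom, plainer moderation and the 2 groups alone), 3 with positive control scaling (where moderation pooled nearly all variance, at a median of 1290 degrees of freedom), and 0 to 7 when 1 library was left out. Without feeder replicate 3 it was 0, without feeder replicate 2 or anti-TIM-3 replicate 2 it was 3, and without anti-TIM-3 replicate 1 it was 7. Fits without a library of either group have fewer degrees of freedom, a median of 4.82 without feeder replicate 3 against 6.18, and rest on 1 library in that group, assumed to vary like the others. Against IL-15 alone 7 genes passed, 4 with TMM, total count or median of ratios scaling, 1 with positive control scaling, 6 with the 2 groups alone, and 5 to 7 with 1 library left out. In the feeder comparison 0 passed under every alternative run. With the number in the titles as a replicate block over all 6 libraries, 3, 0 and 2 genes passed in the anti-TIM-3, feeder and IL-15 comparisons. Over all tested genes, higher and lower calls in the anti-TIM-3 comparison went from 135 and 31 to 62 and 37 by total count, 53 and 49 by median of ratios, 32 and 37 by positive control scaling, 47 and 14 with the block, 32 and 11 without anti-TIM-3 replicate 2, and 44 and 15 when feeder replicate 2 was left out. The deviations of same-numbered libraries correlated at 0.08, -0.41 and 0.04. With 2 libraries a group each deviation also depends on the other library. These values therefore cannot show whether a number stands for a shared mouse or batch.

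Signs changed for values that had not passed. Nfkb1 was at -0.20 with TMM, -0.19 with positive control and -0.17 with median of ratios scaling in the anti-TIM-3 comparison, and at -0.49, -0.52 and -0.46 against IL-15 alone, with -0.33 by total count. In the feeder comparison Relb was at -0.04 (TMM and median of ratios), -0.09 (positive control), -0.14 (total count) and -0.15 (replicate block), Nfkb2 at -0.10 (TMM and median of ratios), -0.15, -0.20 and -0.09, and Ikbke at -0.01 (positive control) and -0.06 (total count). With 1 library left out, Rela ranged from -0.13 to 0.01 and Nfkbia from -0.21 to 0.01 there. The inhibitor minus subunit shift of 0.45 was 0.22 with Nfkbia and Tnfaip3 alone, 0.71 without Relb, and 0.32 to 0.58 with 1 library left out. It was not computed without Nfkb1. The cause of other changes was not tested. With 2 libraries a group and 30 to 100 counts for Nfkbia and Traf3 without antibody, small changes of these genes were not detectable.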
